A study of Mus musculus with 2 samples.

Results

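The Rab GTPases are the small GTPases that label the membranes of vesicles and organelles, and their transcripts were compared between DX5- and DX5+ natural killer (NK) cells of mouse liver. Members were all genes whose symbol is Rab followed by a number and an optional letter and which had a probe set annotated to that gene alone. The array held 59 such genes among 18194 named genes, covered by 132 probe sets. Where a gene had several, the brightest by mean log2 intensity of both arrays stands for it.

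Naive wild-type B6 mice supplied the livers, and both groups were sorted as NK1.1+ and CD3-. The groups differ in the antibody DX5, which binds the integrin alpha 2 chain: one group was DX5- and the other DX5+. Each group was measured on 1 Affymetrix array, and neither the age of the mice nor their number per array is stated. Without replicates there is no spread between samples, so every fold below compares these arrays and carries no test.

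A Rab protein switches between a GTP-bound form, which sits on a membrane and recruits effectors, and a GDP-bound form, which is held in the cytosol. Exchange factors switch it on, GTPase-activating proteins switch it off, and a lipid tail added by Rab geranylgeranyl transferase anchors it. In killer lymphocytes this machinery is best known for Rab27a, which brings lytic granules to the plasma membrane and works with Munc13-4 in their release.

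Intensities are the authors' linear MAS5 signals. Each array was given a detection limit, the 95th percentile of its readings for 148 reference probe sets of families such as olfactory and taste receptors. The limit was 76.1 for DX5- cells and 82.8 for DX5+ cells. Of 18194 genes, 10637 were above the limit on at least 1 array, called detected here. Of the 7 NK cell markers with a probe set of their own, 7 were above both limits. Ncr1, Klrk1, Tbx21 and Gzma were within 1.5-fold, and Klrd1 was 1.71-fold higher in DX5- cells. The other 2 were past 2-fold on the low side in DX5- cells: Eomes at 1991 against 16107 and Prf1 at 3108 against 8978. Log2 ratios are DX5- minus DX5+. As a measure of probe noise, the SD of the log2 ratio between probe sets of 1 gene was 0.34 over 4387 genes. It was 0.23 over the 22 Rab genes with several probe sets above both limits.

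Of the 59 Rab genes 45 were detected, 43 on both arrays and 2 on the DX5+ array only, and 14 were below the limit on both, with readings from 2.8 to 62.1. At 2-fold, 2 Rab genes were higher in DX5- cells, where 3.76% of all detected genes were, and 3 were lower, where 5.66% of all detected genes were. The 5 together are 11.1% of the detected Rab genes, beside 9.42% of all detected genes. At 1.5-fold, 5 were higher against a background of 10.8%, and 7 were lower against a background of 14.1%. Together these 12 are 26.7% of the detected Rab genes beside 24.9% of all detected genes, so the share of Rab genes that differed was near the background. The other 33 detected Rab genes differed by less than 1.5-fold.

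The median log2 ratio of the 45 genes was -0.051, beside -0.016 for all detected genes, and 19 genes were above 0 and 26 below. That side depended on scaling. With the arrays scaled to the 18 spike-in controls the median of all detected genes moved to 0.18, that of the Rab genes moved to 0.16, and 30 Rab genes were above 0. Small differences in either direction are therefore given as values only. The genes past 2-fold were Rab4a and Rab6b on the high side, and Rab7b, Rab32 and Rab31 on the low side.

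**Figure D1:**
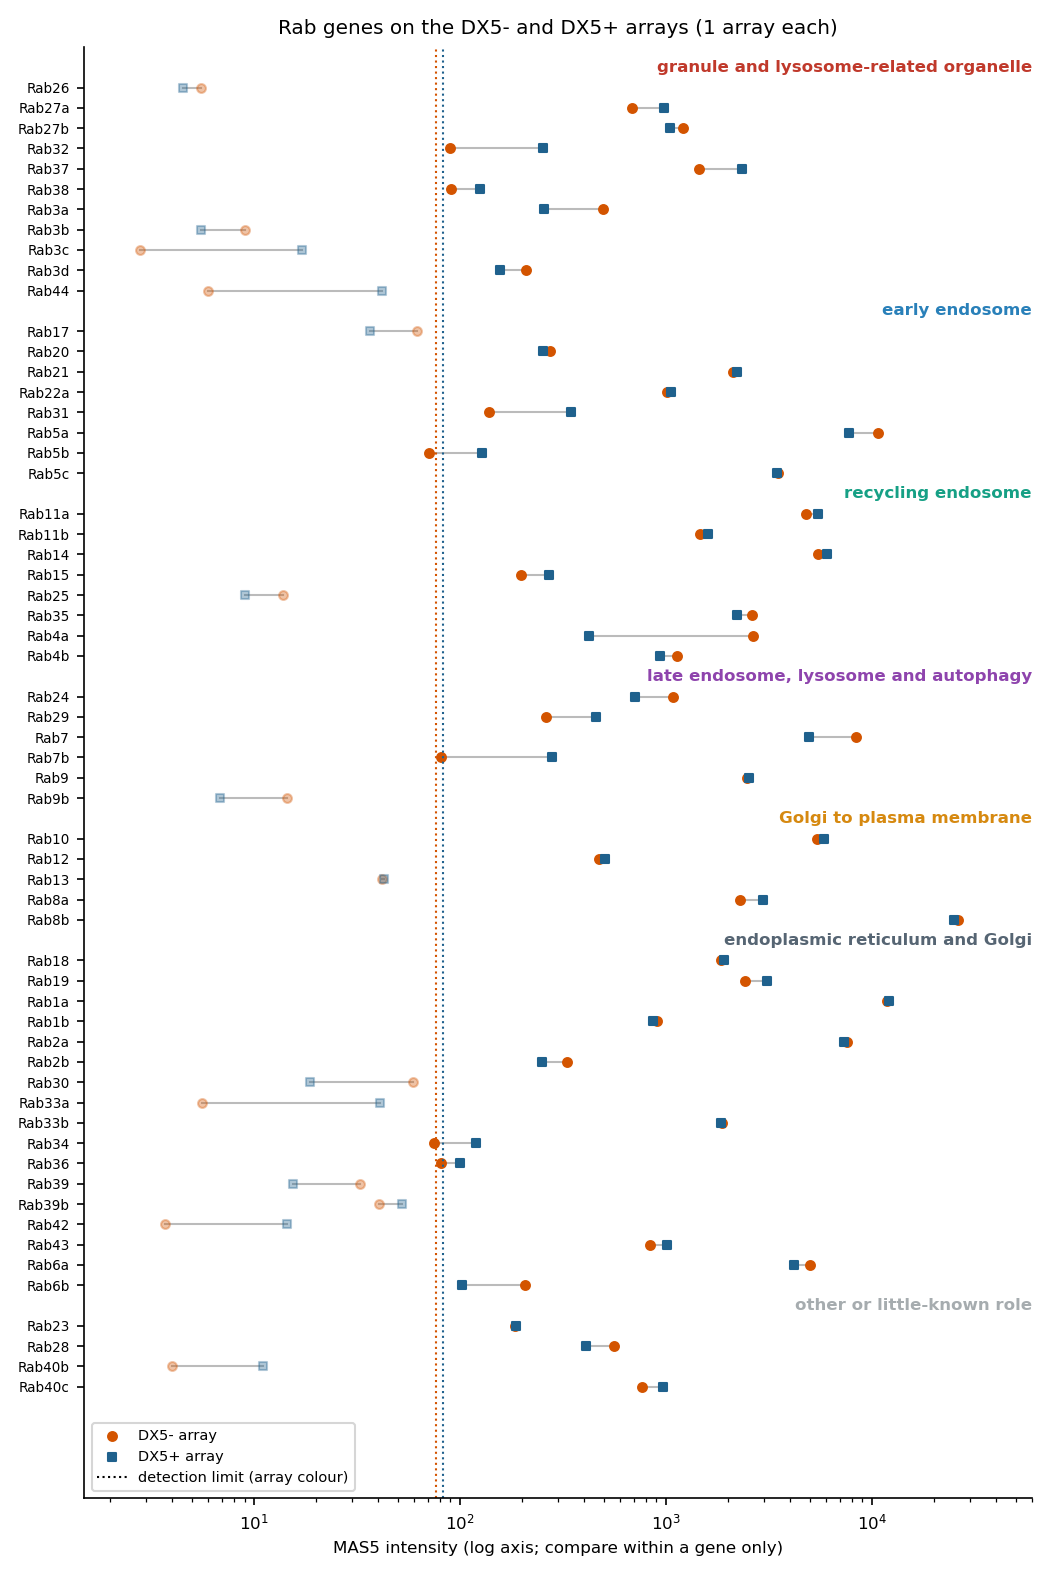
Intensity of each of the 59 Rab genes on the DX5- array (circles) and the DX5+ array (squares), on a log axis, grouped by the membrane step each protein is known for; dotted lines are the detection limits and pale symbols mark genes below both. Rab4a shows the widest gap among the detected genes, 2645 against 425, while most other pairs of symbols nearly overlap.

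Among the Rab proteins of recycling endosomes, Rab4a stood apart. Rab4a drives the fast return of receptors from early endosomes to the cell surface. It read 2645 in DX5- and 425 in DX5+ cells, a 6.23-fold difference. That probe set is of a kind that can match several related transcripts. Its other probe set, which is not, read 1226 and 153, an 8.02-fold difference in the same direction. Only 29 of 10637 detected genes, Rab4a included, had a log2 ratio as high as its 2.64, and 0.620% were as far from 0 in either direction. Under the 10 other processing settings tried its log2 ratio was 2.59 or more.

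Its paralogue Rab4b read 1138 in DX5- and 942 in DX5+ cells, a gap of 1.21-fold. Rab11a and Rab11b, which mark the slower recycling compartment, read 4808 against 5480 and 1472 against 1599. The other Rab11a probe set read 1153 and 1721, or 1.49-fold lower in DX5- cells. The farthest apart of 3 Rab11b probe sets read 749.5 and 1069, or 1.43-fold lower. Rab14, which moves cargo between the Golgi and endosomes, read 5475 against 6077. Rab35, another regulator of endosomal recycling, read 2632 against 2216. Rab15 was at 197 against 269, and Rab25, known from epithelia, was below both limits. So 1 of the 7 detected genes of this step was past 1.5-fold, and the other 6 were within it.

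Most T cell markers lay on the same side as Rab4a, although both groups were sorted as CD3-. Of 10 such markers 9 were detected, and 7 of these were higher in DX5- cells, 5 of them past 2-fold, with Cd3g at 14036 against 1072. The other 2 were lower, Cd28 at 7668 against 8442 and Cd8b1 at 29.6 against 104. Their summed intensity was 25564 for DX5- cells and 10895 for DX5+ cells, while Cd4 was below the limit on both, and none was listed at 0. Their part in the Rab4a difference was not tested. In sorted bulk samples, more cells of a type and more RNA per cell, or fewer and less, cannot be told apart.

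Rab proteins of late endosomes, lysosomes and autophagy split in both directions, with 4 of 5 detected genes past 1.5-fold, where 24.9% of all detected genes were. Rab7, which drives the maturation of late endosomes and their fusion with lysosomes, read 8394 in DX5- and 4934 in DX5+ cells, or 1.70-fold higher. Its other probe set read 6299 and 4183. Rab24, linked to autophagy, read 1085 and 709, or 1.53-fold higher, and its other probe set read 593 and 444, with 1.43-fold for the mean of both. Both genes were higher on every probe set above the limits.

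On the low side of the same step, Rab7b read 81.0 in DX5- and 281.5 in DX5+ cells, a 3.48-fold difference. Rab7b controls traffic from late endosomes to the trans-Golgi network and, despite its name, is a gene separate from Rab7. Its other probe sets were below both limits, at 14.5 against 73.8 and 7.3 against 52.8, in the same direction. The DX5- value lies just above the limit, so a limit at the 99th percentile leaves only a bound of at least 2.03-fold. The mean over its probe sets was below the DX5- limit and left a bound of at least 1.35-fold. Rab29, a Rab of the trans-Golgi and lysosomes known for recruiting the kinase LRRK2, read 261.5 and 459, or 1.75-fold lower. Rab9, which returns receptors from late endosomes to the Golgi, read 2477 and 2525, and Rab9b was below both limits.

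Among Rab proteins of granules and lysosome-related organelles, 7 of 11 were detected. Rab27a read 687 in DX5- and 979 in DX5+ cells, a difference of 1.42-fold that did not reach 1.5-fold. Its other probe sets were each below a limit on at least 1 array. They read 60.4 against 65.4, 47.6 against 116 and 50.4 against 57.1, in the same direction. Rab27b, its paralogue in many secretory cells, read 1210 and 1042. Its probe sets disagreed, with log2 ratios from -0.68 to 0.22, the widest range of any Rab gene with several probe sets above both limits. Platelets also use Rab27b, and of 8 platelet markers 8 were past 2-fold on the low side in DX5- cells, with summed intensities of 1222 and 6052. Of the 4 Rab27b probe sets, 1 was past 1.5-fold on that side, at 545 against 875. The part of platelet RNA in these values was not tested.

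Rab32, which carries cargo to lysosome-related organelles, read 89.4 in DX5- and 253.5 in DX5+ cells, or 2.84-fold lower. Its partner in that step, Rab38, read 90.4 and 126 on a probe set of a kind that can match several related transcripts. Another Rab38 probe set, which is not, read 39.4 and 92.6, with the DX5- reading below the limit. Rab32 had 1 probe set, and a limit at the 99th percentile leaves only a bound of at least 1.82-fold. Rab37, a Rab of secretory granules, read 1444 and 2346, or 1.62-fold lower, and its other probe set read 744 and 1066. With spike-in scaling its log2 ratio was -0.49, within 1.5-fold.

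The Rab3 genes encode regulators of stimulated exocytosis in neurons and glands. Rab3a read 493 and 255, or 1.93-fold higher in DX5- cells. That value came from a probe set marked as open to cross-hybridisation, and its other probe set went the opposite way below both limits, at 15.8 and 43.1. Averaged over both, the log2 ratio turned from 0.95 to -0.25, so the direction of Rab3a is uncertain. Rab3d read 210 and 156.5. Rab3b, Rab3c, Rab26 and Rab44 were below both limits.

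Of the 7 detected early endosome Rabs 5 were within 1.5-fold. Rab5a, which drives fusion of early endosomes, read 10772 in DX5- and 7724 in DX5+ cells, a 1.39-fold difference. Its sister gene Rab5c read 3507 and 3458. Rab5b was above the limit on the DX5+ array only, at 70.9 against 128, or lower in DX5- cells by 1.68-fold or more. Its bound was within 1.5-fold with spike-in scaling (1.45) and with the wider reference families (1.30), and no fold could be given at the 99th percentile. Among the rest, Rab20, Rab21, which acts in integrin traffic, and Rab22a differed by at most 1.07-fold on the probe sets used. A dim second probe set of Rab21 read 157 and 96.1. The 4 probe sets of Rab22a had log2 ratios from -0.49 to 0.18, the lowest at 624.5 against 876. Rab17 readings were below both limits.

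Rab31, which moves cargo between the trans-Golgi network and endosomes, was the early endosome gene with the largest gap. It read 139 in DX5- and 345 in DX5+ cells, or 2.49-fold lower. Its other probe set read 72.0 and 50.4, below both limits and in the opposite direction, and averaged over both the log2 ratio went from -1.31 to -0.40.

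The detected macrophage and neutrophil markers, like the platelet markers above, lay on the same side as Rab7b, Rab31 and Rab32. Of 12 macrophage and Kupffer cell markers with a probe set, 5 were detected. Of these 5 genes 4 were past 2-fold on the low side in DX5- cells and 5 past 1.5-fold. The marker list summed to 1382 for DX5- cells and 5803 for DX5+ cells. The Kupffer cell genes Clec4f, C1qa, C1qb, C1qc, Timd4, Cd163 and Vsig4 were below the limit on both arrays, though none was listed at 0. Of 8 neutrophil markers 6 were detected and 3 were past 2-fold on that side, with sums of 3814 and 9731. The 5 dendritic cell markers with a probe set had sums of 6446 and 5232, with 4 detected, 3 of them lower in DX5- cells and 1 past 2-fold on that side. Itgax, the detected one that was higher, made up most of these sums, at 5739 and 3971. Sums were 1965 and 2511 for 6 mast cell and basophil markers, 1001 and 706 for 4 B cell markers, and 1322 and 2070 for 5 hepatocyte markers. Kit, at 1738.5 and 1738.9, made up most of the mast cell and basophil sums. The other detected markers of that list were lower in DX5- cells, Cpa3 at 108.5 against 504 and Mcpt8 at 44.1 against 124. Past 2-fold on that side were 1 of 3 detected mast cell and basophil markers, 0 of 3 B cell markers and 1 of 4 hepatocyte markers. The part of such cells or of platelets in the Rab7b, Rab31 and Rab32 differences was not tested.

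Promoter windows were examined for what the members share in sequence. The RefSeq promoter table of build GRCm38.p6, with 250 bases before and 50 after each start, held 48 of the 59 Rab genes, and where a gene had several starts its GC and CpG values were averaged and a motif counted if any of its windows held it. The other 11, not shown here, include Rab4a, Rab7b, Rab27b and Rab37. Rab promoters were richer in GC and CpG than those of all genes in that table, detected here or not. A background of detected genes was not computed, so whether this is particular to Rab genes was not tested. Their median GC content was 62.7%, against 52.8% over 27025 genes, and their median number of CpG dinucleotides was 19.5 against 7. Detected Rab genes had a median GC content of 63.3% and 25 CpG over 37 genes. Those below both limits had 57.5% and 10 CpG over 11 genes, and the ranges overlapped widely, from 45.3% to 78.7% and from 35.7% to 70.7%.

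**Figure D2:**
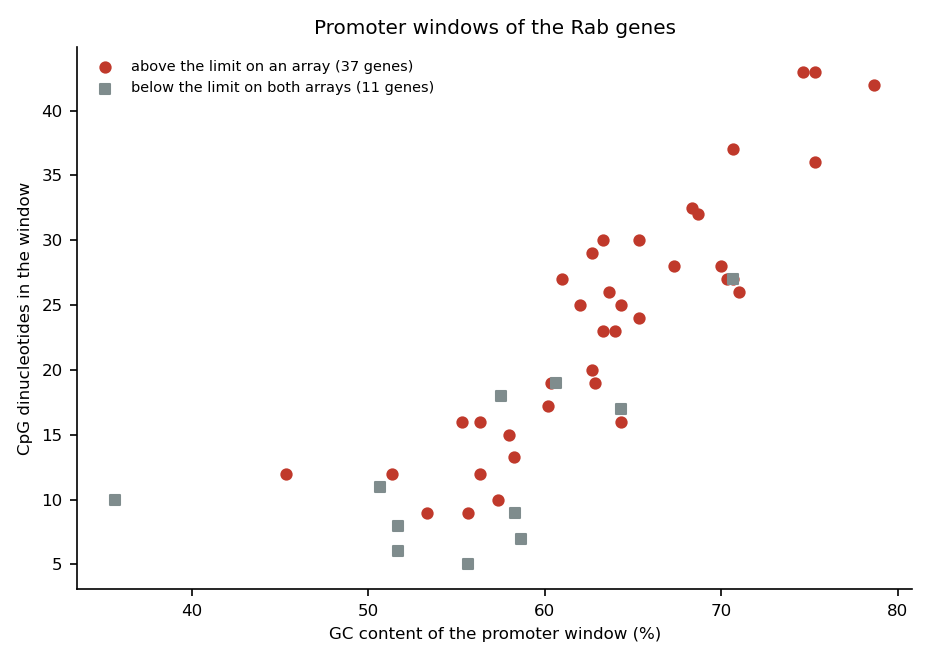
GC content against the number of CpG dinucleotides in the promoter windows of 48 Rab genes; circles are genes above the detection limit on an array and squares are genes below it on both. Of all these genes the highest CpG counts, 43, belong to detected genes, and the squares lie at 5 to 27 CpG.

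Short motifs were searched on both strands: CACGTG, the core bound by lysosomal gene regulators of the TFEB family; AGGTGT, a core of T-box sites, the family of Eomes and T-bet; and GGAAGT, a core of ETS sites. CACGTG occurred in the windows of 12.5% of the Rab genes against 8.09% of all genes in the promoter table, detected here or not. AGGTGT occurred in 16.7% against 15.7%, and GGAAGT in 27.1% against 26.5%. Each motif was counted by itself, and none contains another. Windows of a pair of genes higher in DX5- cells and a pair lower in them are shown, to set the late endosomal Rab7 and Rab24 beside Rab32 and Rab31. Each reads 5′ to 3′ on the minus strand with motif matches in capitals: Rab7 (1 of its 2 starts) at chr6:88045221-88045520, Rab24 at chr13:55321931-55322230, Rab32 at chr10:10558158-10558457 and Rab31 at chr17:65772703-65773002.
Rab7: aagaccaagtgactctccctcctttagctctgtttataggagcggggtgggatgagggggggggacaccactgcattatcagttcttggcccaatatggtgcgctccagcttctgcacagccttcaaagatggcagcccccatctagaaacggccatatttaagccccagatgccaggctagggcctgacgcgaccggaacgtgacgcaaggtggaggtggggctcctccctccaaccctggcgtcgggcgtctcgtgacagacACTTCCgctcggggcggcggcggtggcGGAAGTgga
Rab24: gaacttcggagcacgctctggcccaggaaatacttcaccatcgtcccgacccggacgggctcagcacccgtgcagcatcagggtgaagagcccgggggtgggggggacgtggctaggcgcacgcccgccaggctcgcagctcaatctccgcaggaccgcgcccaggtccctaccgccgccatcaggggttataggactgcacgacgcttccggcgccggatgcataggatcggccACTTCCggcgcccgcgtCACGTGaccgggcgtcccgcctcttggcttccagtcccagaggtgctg
Rab32: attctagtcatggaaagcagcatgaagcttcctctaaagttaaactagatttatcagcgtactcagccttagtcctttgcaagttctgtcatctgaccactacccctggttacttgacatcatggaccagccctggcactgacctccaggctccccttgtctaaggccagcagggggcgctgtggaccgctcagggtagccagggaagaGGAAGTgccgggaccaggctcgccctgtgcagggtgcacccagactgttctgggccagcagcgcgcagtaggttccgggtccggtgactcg
Rab31: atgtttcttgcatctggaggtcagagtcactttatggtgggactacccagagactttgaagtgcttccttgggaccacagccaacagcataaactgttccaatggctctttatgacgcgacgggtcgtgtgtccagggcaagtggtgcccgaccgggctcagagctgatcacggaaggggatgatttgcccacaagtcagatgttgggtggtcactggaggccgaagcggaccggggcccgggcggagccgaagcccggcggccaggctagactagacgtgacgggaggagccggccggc
The Rab7 window holds GGAAGT 2 times, once on each strand. Rab24 holds CACGTG and GGAAGT 1 time each, and Rab32 holds GGAAGT 1 time. The Rab31 window holds none of the motifs, and AGGTGT is in none of the windows shown. Among all 48 genes the CACGTG core was present for Rab5a, Rab20, Rab21, Rab23, Rab24 and Rab27a, which lay on both sides of 0 in log2 ratio. These matches describe letters in the window, not binding.

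**Figure D3:**
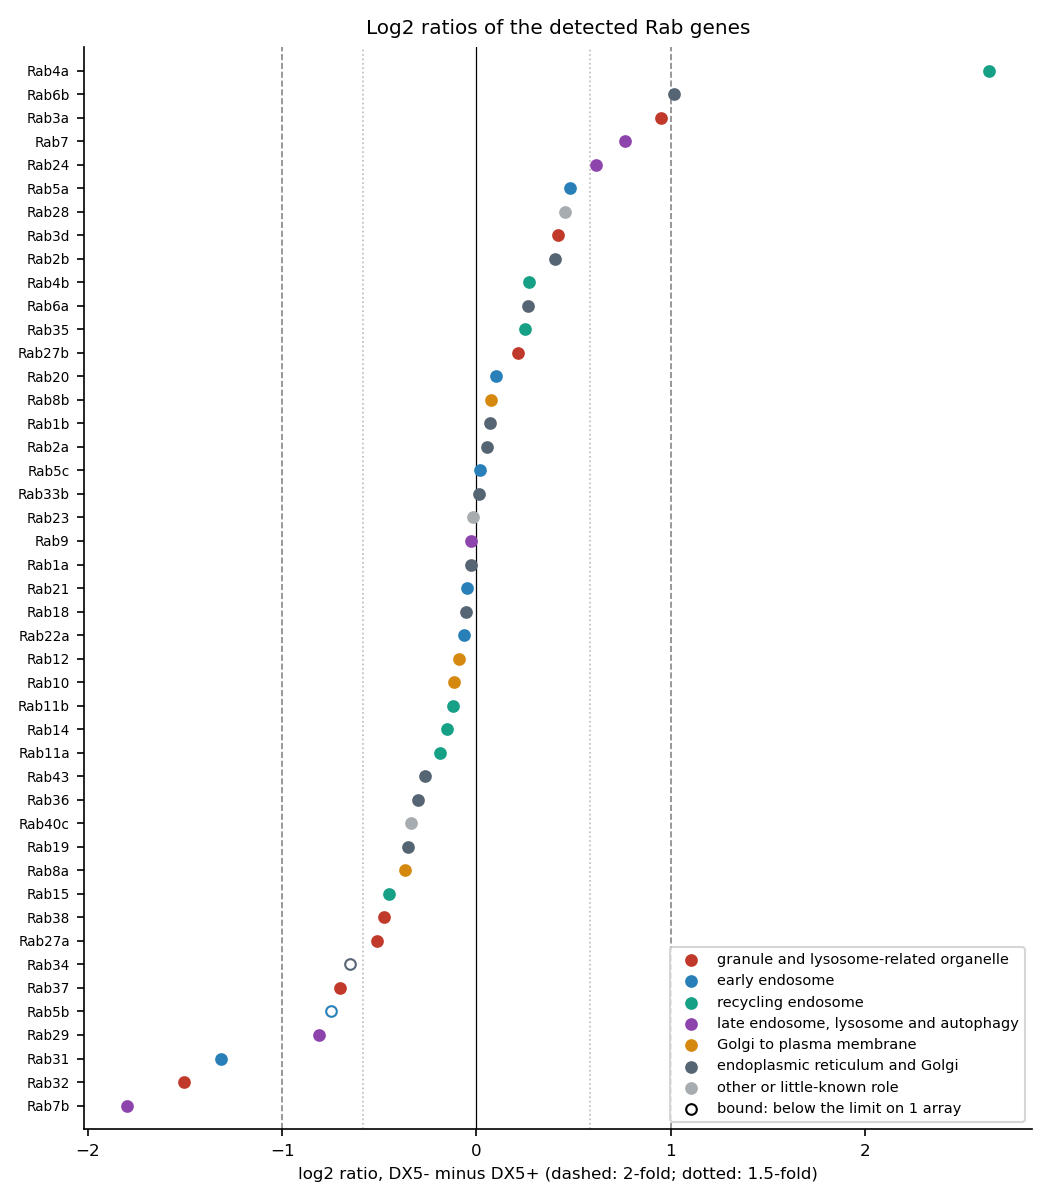
Log2 ratio (DX5- minus DX5+) of the 45 detected Rab genes, in order, coloured by membrane step; dashed lines mark 2-fold, dotted lines 1.5-fold, and open symbols are bounds for genes below the limit on the DX5- array. Rab4a lies at 2.64, Rab7b at -1.80, Rab32 at -1.50 and Rab31 at -1.31, and 33 genes lie between the dotted lines.

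Of the Rab proteins that move cargo from the Golgi to the plasma membrane, none of the 4 detected genes reached 1.5-fold. Rab8b, which takes part in exocytosis, read 26316 in DX5- and 24992 in DX5+ cells, and its paralogue Rab8a read 2294 and 2957. Rab10 read 5405 and 5855, Rab12 read 474.5 and 504.5, and Rab13 was below both limits.

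Of the 17 Rab genes of the endoplasmic reticulum and Golgi 12 were detected, and 10 of these were within 1.5-fold. Rab1a and Rab1b, which act in transport from the endoplasmic reticulum to the Golgi, read 11844 against 12089 and 907 against 865. Rab2a, which acts between the Golgi and the endoplasmic reticulum, read 7596 and 7306. Rab6a, the widespread Golgi isoform of retrograde traffic, read 5033 and 4190. On these probe sets none of the core transport genes was more than 1.20-fold apart. Rab2a had 6 probe sets above both limits, with log2 ratios from -0.56 to 0.06. All but the one shown were lower in DX5- cells, the farthest at 171 against 253.

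The exception was Rab6b, an isoform best known from neurons, at 207 in DX5- cells and 102 in DX5+ cells, or 2.03-fold higher. All 3 of its probe sets above both limits lay between 2.03-fold and 2.11-fold. It sits at the 2-fold line, and an offset of 16 gave 1.89-fold. Where the DX5+ reading fell under the limit only a bound remained: at least 1.68-fold with the 99th percentile, at least 1.92-fold with wider reference families and at least 1.79-fold for the mean of its probe sets, the dimmest of which read 60.7 against 12.4. Rab34, a Golgi and lysosome positioning Rab, was at 74.8 against 119.5, at least 1.57-fold lower. Its bound fell within 1.5-fold with spike-in scaling, quantile normalization, the offset and the wider reference families, and it was below both limits at the 99th percentile and as a mean of its probe sets. Rab2b, Rab18, Rab19, Rab33b, Rab36 and Rab43 differed by at most 1.32-fold. Readings for Rab30, Rab33a, Rab39, Rab39b and Rab42 were below both limits.

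The remaining genes have other or less settled roles. Rab23, known from hedgehog signalling and cilia, read 186 and 188. Rab28 read 560.5 and 408, and Rab40c, a Rab with a SOCS box, read 768 and 971. Rab40b was below the limit on both arrays.

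Where a Rab gene had several probe sets above both limits, they allowed a check of its direction. Of 22 such genes 14 had all those probe sets on the same side of 0 and 8 had them on both sides. The probe sets of Rab4a, Rab6b, Rab7, Rab24 and Rab37, the genes past 1.5-fold that could be checked in this way, each agreed in direction. Rab7b, Rab29, Rab31, Rab32, Rab3a, Rab5b and Rab34 could not be checked.

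**Figure D4:**
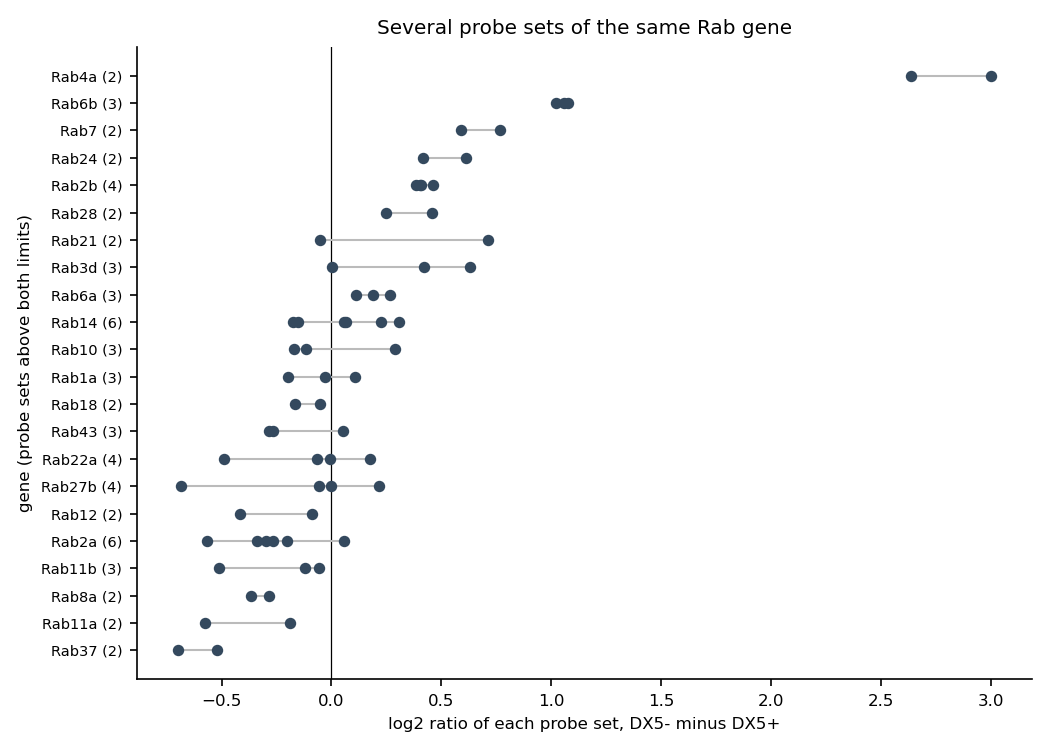
Log2 ratio (DX5- minus DX5+) of every probe set above both detection limits for the 22 Rab genes with more than 1 such probe set; the number in brackets is the number of probe sets and a line joins the lowest and highest. The 2 probe sets of Rab4a lie at 2.64 or above, apart from the rest, and those of Rab27b spread over 0.90.

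Genes that act with Rab proteins were taken from 5 lists of 158 symbols, older names included, of which 149 had a probe set of their own and 125 were detected. At 2-fold 3 of them were higher in DX5- cells and 6 were lower, together 7.20% beside 9.42% of all detected genes. At 1.5-fold 16 were higher and 13 lower, together 23.2% beside 24.9%. Past 2-fold in either direction were 6.90% of the detected exchange factors and 6.67% of the GTPase-activating proteins. For effectors it was 8.82%, and for tethering and SNARE genes 8.33%. Of all detected genes 3.76% were past 2-fold on the high side and 5.66% on the low side, the background for the counts by list below. The list medians lay between -0.14 and 0.15 on the log2 scale. The balance at 2-fold depended on scaling, with 5 higher and 4 lower under median centring and under quantile normalization, and 9 and 3 under spike-in scaling. The balance of all detected genes moved too. Median centring gave 4.08% higher and 5.25% lower, quantile normalization 4.45% and 4.85%, and spike-in scaling 6.34% and 3.73%.

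Of the genes that load and store Rab proteins, none of the 8 detected reached 1.5-fold, with Pde6d, a carrier of lipid-tailed GTPases, farthest apart at 163 against 120. Chosen after their values were seen, Gdi2, which holds GDP-bound Rabs in the cytosol, read 13338 and 12317, and Chm, the escort protein of prenylation, read 866 and 958.

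Of 29 detected exchange factors none was past 2-fold on the high side in DX5- cells and 2 were on the low side. Rab3ip (Rabin8), which activates Rab8, read 412 and 1062, or 2.58-fold lower. Dennd2c, a DENN domain exchange factor, was at 40.1 against 154, at least 2.02-fold lower. Hps4 and Hps1, which together activate Rab32 and Rab38, read 1299 against 650 and 911 against 519.5. Hps4 lay just under 2-fold and Hps1 at 1.75-fold, both on the other side from Rab32. The Hps1 value came from a probe set marked as open to cross-hybridisation. Another Hps1 probe set above both limits, not so marked, read 116 and 105. Hps4 and Hps1 were chosen after their values were seen.

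Of 30 detected GTPase-activating proteins none was past 2-fold on the high side and 2 were on the low side. Tbc1d2b read 795 and 1952, or 2.46-fold lower, and Tbc1d8 was at 52.5 against 153, at least 2.01-fold lower. The bounds of Dennd2c and Tbc1d8 fell under 2-fold with every other scaling and with the offset, to 1.57 and 1.56 with the wider reference families, and to 1.11 and 1.10 at the 99th percentile. At 1.5-fold 7 were higher and 5 lower, or 40.0% of the list beside 24.9% of all detected genes. Among the higher ones Tbc1d10c, a member of this family found in lymphocytes and named after its value was seen, read 1921 and 1101.

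Of 34 detected effectors 1 was past 2-fold on the high side and 2 on the low side. Rab11fip1, which binds Rab11 on recycling endosomes and also Rab4, read 784 and 363, or 2.16-fold higher. Rilpl2, which binds Rab8 and Rab10 after their phosphorylation by LRRK2, read 2934 and 8186, or 2.79-fold lower. Fyco1, which links Rab7 vesicles to microtubule motors, read 189 and 414, or 2.19-fold lower, but its other probe set read 246 and 251. Outside the 2-fold rule and chosen after their values were seen, Unc13d, the gene of Munc13-4, read 865 and 466, and Rabep1, an effector of Rab4 and Rab5, read 381 and 571.

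Of 24 detected genes of granule tethering and SNARE fusion 2 were past 2-fold on the high side and none on the low side. Stx16, a syntaxin of the trans-Golgi network, read 910 and 352, or 2.58-fold higher. Vamp1, a vesicle SNARE best known from synapses, read 269 and 131, or 2.05-fold higher, and its other probe set read 147 and 85.1. Stx11 and Stxbp2, the fusion proteins that, like Unc13d, are mutated in familial hemophagocytic lymphohistiocytosis, were chosen after their values were seen and read 4365 against 5101 and 646 against 515.

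**Figure D5:**
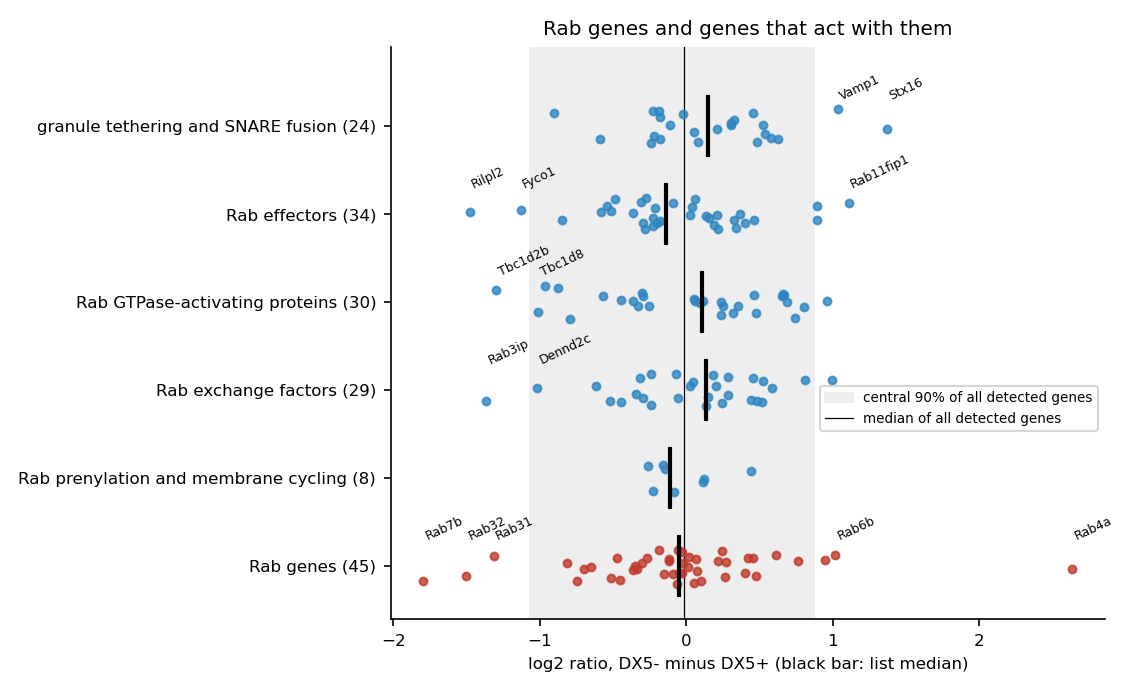
Log2 ratio (DX5- minus DX5+) of the detected Rab genes and of the detected genes of 5 lists that act with them, 1 point per gene, with the number of genes in brackets; black bars are list medians, the grey band is the central 90% of all detected genes and the names mark genes past 2-fold. Rab4a at 2.64 lies farther from 0 than any gene of the other lists shown.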

How the data were processed

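Expression was measured on 1 Affymetrix array for DX5- NK cells and 1 for DX5+ NK cells. The deposited values are linear intensities made by the authors with MAS5, per the submitters' processing notes; their version and parameters are not stated. Depth has no counterpart on arrays, and the number of arrays limits the precision. The table held 45101 probe sets. The platform annotation gave 34958 of them 1 gene symbol and 932 several, and 9211 are unnamed here; only the first kind was used. Values were taken to log2 without an offset (Python 3.11.15, pandas 2.3.3, numpy 2.4.6).

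Genes below the detection limit on both arrays were left out. A value below the limit on 1 array was set to that limit, which gives an "at least" fold. The limit leaves out the lymphocyte-expressed genes Crybg1 to Crybg3; the limit with them is an alternative chosen after the data were seen. No test was possible with 1 sample per group. Calling of ratios was tested on simulated data, with changes set only in genes well above the limit, so changes near the limit were not simulated.

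Named genes were all members, pathway genes past 2-fold or, where a list had none, the one farthest apart, and marker genes; others are marked. The members, lists and motifs were chosen with earlier results of these data known. Alternatives changed the scaling, the limit, the probe set rule and the offset.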

Additional observations from a re-analysis of the deposited data

How the results depend on the processing

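With 1 array per group no replicate could be left out. No paired analysis was possible because each group has 1 sample. Over 10 alternative settings, the log2 ratios of the 12 Rab genes past 1.5-fold gave 117 values. No value was left where a gene fell below both limits. That was Rab3a without probe sets that can match several transcripts, and Rab34 with the 99th percentile limit and as a mean over probe sets. Of the 117 values 108 moved by less than the probe noise SD of 0.34 and 8 by more. Of the 8, 6 are bounds, where a reading came under the limit and was set to it, and the other 2 are Rab31 as a mean over probe sets and Rab4a without probe sets that can match several transcripts. The remaining value is Rab3a as a mean over probe sets, which turned to -0.25; the cause is the opposite reading of its dim second probe set.

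The 2 Rab genes at least 2-fold higher became 1 with a 99th percentile limit, the mean over probe sets, the offset of 16 and the wider reference families for the limit (Rab6b dropped out), and 5 with no limit. The 3 lower became 2 with a 99th percentile limit (Rab32 dropped out) and 8 with no limit. With the mean over probe sets the lower genes were Rab32 and Rab8b, so Rab7b and Rab31 dropped out. Rab8b entered through a dim second probe set, at 1.6 against 46.7. At 1.5-fold, spike-in scaling gave 9 higher and 4 lower, and no limit gave 11 and 12. No limit admits dim genes by construction. Among pathway genes, the 3 at least 2-fold higher became 5 with median centring, quantile normalization and the mean over probe sets, 9 with spike-in scaling and 6 with no limit. The 6 at least 2-fold lower became 3 with spike-in scaling and 13 with no limit, and 4 with median centring, quantile normalization, the 99th percentile limit, the offset and the wider families. At 1.5-fold, spike-in scaling gave 31 higher and no limit 21 lower. The Rab median ranged from -0.10 with the mean over probe sets to 0.16 with spike-in scaling. Signal near background limits Rab7b, Rab32, Rab34, Rab5b and Rab6b.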
